A study of Mus musculus with 10 samples.

Results

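The genes described here encode the Eph receptors and their ephrin ligands, the Slit ligands with their Robo receptors and srGAP effectors, and the netrins with their receptors, which together form the classical contact and diffusible cues of axon guidance. They were taken by symbol from a deposited table of read counts per gene, in which every row had more than 0.5 CPM (read counts relative to library size) in at least 5 libraries, and 42 of its 14300 rows belonged to them. Of 45 such gene identifiers in the GENCODE annotation of GRCm38, 3 (Epha1, Epha2 and Robo4) were not analysed here. The 42 genes were sorted into 11 ligand, receptor and effector classes.

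The study compared cells of the embryonic mouse brain that had switched on a Grem1 reporter with cells that had not. Mice of the c57bl/6j strain carried a tamoxifen-inducible Cre under control of Grem1, which encodes a secreted antagonist of bone morphogenetic proteins, and a Cre-dependent TdTomato allele. Dams were given tamoxifen at 13.5 dpc (days post coitum), brains were taken 24 h later at 14.5 dpc, and live TdTomato+ and TdTomato- cells were separated by flow sorting. The 10 libraries came from induced animals of this genotype, 5 from each population, with 1 pair for each of the mice numbered 2 to 6. The TdTomato- cells were thus everything alive in the dissected tissue that had not recombined the reporter in that day, and not a single cell type. The labels call the material brain cells, whereas the methods of the study describe dissection of the dorsal telencephalon with the meninges removed, and whether a mouse number stands for 1 embryo or for pooled embryos is not given in the sources used here.

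Guidance receptors sit on the growth cone, the motile tip of a growing axon, and convert cues in the surrounding tissue into local changes of the cytoskeleton. Slits are secreted repellents read by Robo receptors, netrins are secreted proteins that attract through Dcc and its relatives and repel through Unc5 receptors, and ephrins are membrane-bound ligands that signal at cell contact to Eph receptor tyrosine kinases, with A ephrins held by a lipid anchor and B ephrins spanning the membrane. In the developing cortex the same families also act on radial migration of neurons, on progenitors and on the sorting of corticofugal and callosal axons.

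The libraries held 23429034 to 27286180 counts, and no guidance gene had fewer than 15 counts in any library. Grem1 itself was at 5.0 to 7.0 CPM (from here on scaled by the TMM method) in the TdTomato- libraries and at 60.7 to 68.4 CPM in the TdTomato+ libraries. Of 6 markers of deep-layer cortical neurons, 5 were higher in TdTomato+ cells (median log2 fold change of the list 2.14), and Foxp2 did not pass the test. All 8 progenitor markers, all 10 markers of GABAergic and striatal neurons, all 6 microglial markers, all 5 Cajal-Retzius markers and 4 of the 5 measured pericyte markers were lower in TdTomato+ cells. The summed level of the pericyte markers fell from between 95.0 and 113 CPM to between 5.70 and 7.96 CPM, most of it Notch3 (87.3±7.71 against 4.52±0.439 CPM), a gene that progenitors also express, and of 2 measured meningeal markers 1 was lower. The TdTomato- side of every comparison was thus a mixture, and in sorted bulk RNA a smaller number of cells of one type and less RNA in each cell cannot be told apart.

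Most guidance genes differed between the populations, and they did so in both directions within nearly every family. At an adjusted p of 0.05 or less (edgeR quasi-likelihood F-test with the mouse as a block, Benjamini-Hochberg adjustment over all 14300 rows), 34 of the 42 genes were called, against 77.3% of all rows. Of these 20 were higher in TdTomato+ cells, where 37.9% of all rows were, and 14 were lower, where 39.4% of all rows were. The share of guidance genes called was therefore close to that of the table as a whole. The median log2 fold change of the 42 genes was 0.28 and that of all rows was −0.01. In 33 of the 34 called genes the 5 mice all had the same direction, and the exception was Efna1. The calls came from a test blocked on these same mice, so this agreement is no separate support for them. Its share over all rows was not computed.

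Past both thresholds of the study (the same adjusted p, and a log2 fold change of 2 or more in either direction), there were 6 differentially expressed genes, all of them lower in TdTomato+ cells, against 9.74% of all rows that were lower by this rule. They were the ligands Ntn1, Ntn4 and Slit2 and the receptors Ephb3, Ephb4 and Unc5d. No guidance gene was higher by this rule, where 3.2% of all rows were. The libraries of the populations did not overlap for 28 of the 42 genes, against 61.6% of all rows. Of 16 ligands 7 were higher and 6 lower, and of 23 receptors 10 were higher and 8 lower, where 37.9% of all rows were higher and 39.4% lower. The difference between ligands and receptors was not tested.

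**Figure D1:**
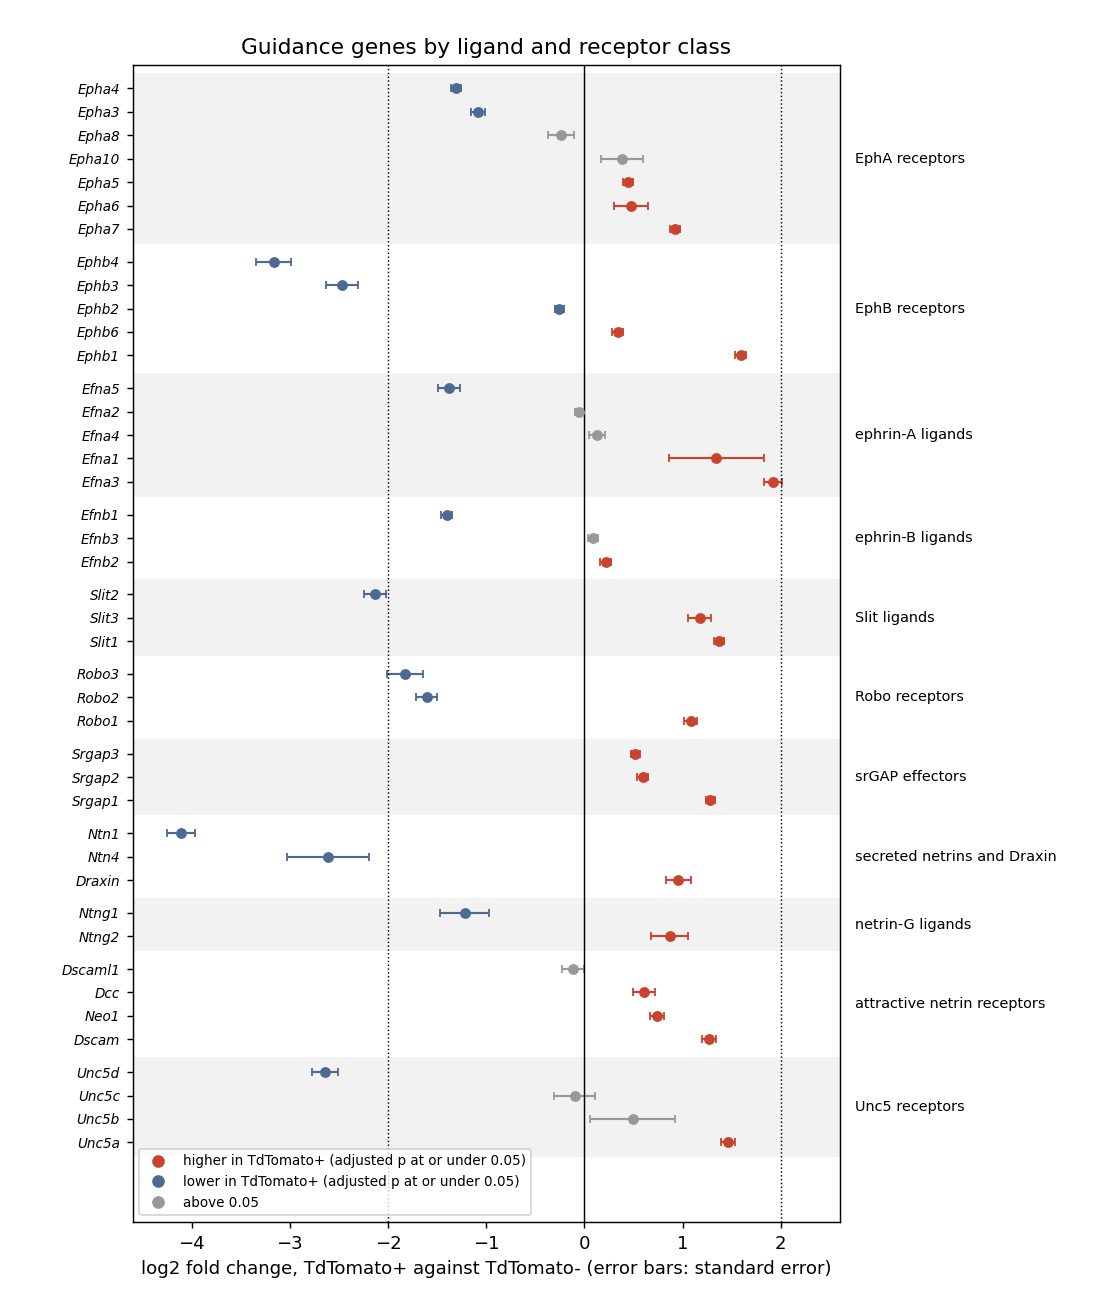
Log2 fold change of each of the 42 guidance genes in TdTomato+ against TdTomato- cells (x axis, bars are the standard error of the paired fit) ordered within its class on the y axis, with dotted lines at −2 and 2. The 6 genes left of −2 are Ntn1, Ephb4, Unc5d, Ntn4, Ephb3 and Slit2, and no gene lies right of 2.

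Among the Slits, the secreted repellents, 2 rose and 1 fell. Slit1, the Slit with the highest level per exonic length here, was at 209, 175, 174, 185 and 172 CPM in the TdTomato- libraries of mice 2 to 6 and at 502, 467, 469, 425 and 499.8 CPM in the TdTomato+ libraries. Every TdTomato+ library was above every TdTomato- library. Slit1 was thus higher by 1.37 log2 units (s.e. 0.05, adjusted p = 3.1e-08). Slit3 rose by 1.17 (s.e. 0.12) from a lower level, 9.87±1.81 CPM to 22.5±5.84 CPM (mean±s.d., n=5 libraries each).

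Slit2 (ENSMUSG00000031558, chromosome 5, 47983138 to 48307733 on the plus strand of GRCm38) went the other way. Its levels were 63.9, 59.0, 62.2, 62.7 and 54.6 CPM in TdTomato- cells and 11.4, 15.7, 19.1, 13.8 and 10.1 CPM in TdTomato+ cells of mice 2 to 6. The TdTomato+ libraries all lay below the lowest TdTomato- library. Slit2 was 4.38-fold lower, or −2.13 in log2 units (s.e. 0.11, adjusted p = 2.2e-07). This lay close to the threshold of 2, and a TREAT test against a log2 fold change of 2 gave an adjusted p of 0.40. In FPKM, the CPM divided by the length of the union of the annotated exons in kilobases, the Slit class as a whole rose from 34.9±2.68 to 84.1±5.08, and Slit1 made up 88.5% of it in TdTomato- and 94.9% in TdTomato+ cells. Slit2 went from 6.82% of that total to 0.662%, or from 15.1% to 1.58% with the longest annotated transcript as length.

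The Robo receptors changed in opposite directions. Robo1, the most highly expressed Robo per length, was at 399.8, 360.2, 408, 405 and 417 CPM in TdTomato- cells and at 734, 915, 941, 808 and 830.2 CPM in TdTomato+ cells. The lowest TdTomato+ library, that of mouse 2, was still far above the highest TdTomato- library. Its log2 fold change was 1.08 (s.e. 0.07, adjusted p = 5.6e-07). Robo2, which lies 845.7 kb from Robo1 on chromosome 16 and binds the same ligands, fell from 316±24.4 to 106±23.0 CPM (log2 fold change −1.60, s.e. 0.11). Robo3, the divergent family member known from commissural axons that cross the midline, fell by 1.83 (s.e. 0.19) from 13.3±4.31 CPM. Robo1 thus went from 54.0% to 88.2% of the Robo FPKM, and Robo2 from 41.7% to 10.8%. The level of Robo1 depended on the length, at 24.1 and 51.2 FPKM with the exon union and 52.6 and 112 FPKM with the longest annotated transcript, but its share hardly did (57.1% and 89.5% with that transcript).

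The 3 srGAPs, GTPase-activating proteins that bind the cytoplasmic tail of Robo receptors, all rose. Srgap3, the highest of them per length, was at 484, 405, 399, 442 and 433 CPM in TdTomato- cells and 647, 626, 623, 577 and 619 CPM in TdTomato+ cells. The groups did not overlap, and the log2 fold change was 0.52 (s.e. 0.05, adjusted p = 9.6e-06). Srgap1 rose the most, by 1.28 (s.e. 0.04), from 162±8.77 to 394±25.2 CPM. Srgap2 rose by 0.59 (s.e. 0.06). The summed level of the class went from 77.5±5.84 to 129.7±3.81 FPKM.

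The largest fold change of any guidance gene was that of Ntn1, which encodes netrin-1, the founding secreted netrin. Ntn1 (ENSMUSG00000020902, chromosome 11, 68209364 to 68400823, minus strand) was at 78.9, 71.6, 73.7, 76.4 and 76.5 CPM in the TdTomato- libraries and at 4.26, 4.12, 4.94, 6.13 and 2.62 CPM in the TdTomato+ libraries. Within each population the libraries lay close together, and the populations were far apart. Ntn1 was 17.2-fold lower, a log2 value of −4.11 (s.e. 0.14, adjusted p = 1.4e-08). Ntn1 stood beside the progenitor and GABAergic markers in this direction, whose list medians were −4.62 and −4.41, and their part in the result was not tested.

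Ntn4, a netrin related to the laminin beta chain and found in basement membranes, also fell. Ntn4 (ENSMUSG00000020019, chromosome 10, 93640681 to 93747207, plus strand) was at 25.1, 34.6, 33.8, 30.3 and 30.2 CPM in TdTomato- cells and at 10.2, 2.04, 1.24, 5.35 and 8.86 CPM in TdTomato+ cells. The TdTomato+ libraries of mice 3 and 4 were lowest and that of mouse 2 was highest, a spread of 8.25-fold, but none reached the TdTomato- range. Its log2 fold change was −2.61 (s.e. 0.42, adjusted p = 3.6e-04). Without mice 3 and 4 it was −1.83, which is no longer past the fold change threshold, and TREAT gave an adjusted p of 0.26 in all mice.

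Draxin, a secreted protein that binds netrin-1 and Dcc and repels axons, rose. It was at 310.1, 256, 265, 328 and 355 CPM in TdTomato- cells and at 527, 673, 701, 505 and 536 CPM in TdTomato+ cells. Mice 3 and 4 had the highest TdTomato+ levels, and all 5 TdTomato+ libraries were above all TdTomato- libraries. Draxin was higher by 0.96 log2 units (s.e. 0.13, adjusted p = 1.2e-04). Draxin made up 74.0% of the FPKM of the secreted netrins and Draxin together in TdTomato- cells and 98.0% in TdTomato+ cells, while Ntn1 went from 15.4% to 0.621%.

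**Figure D2:**
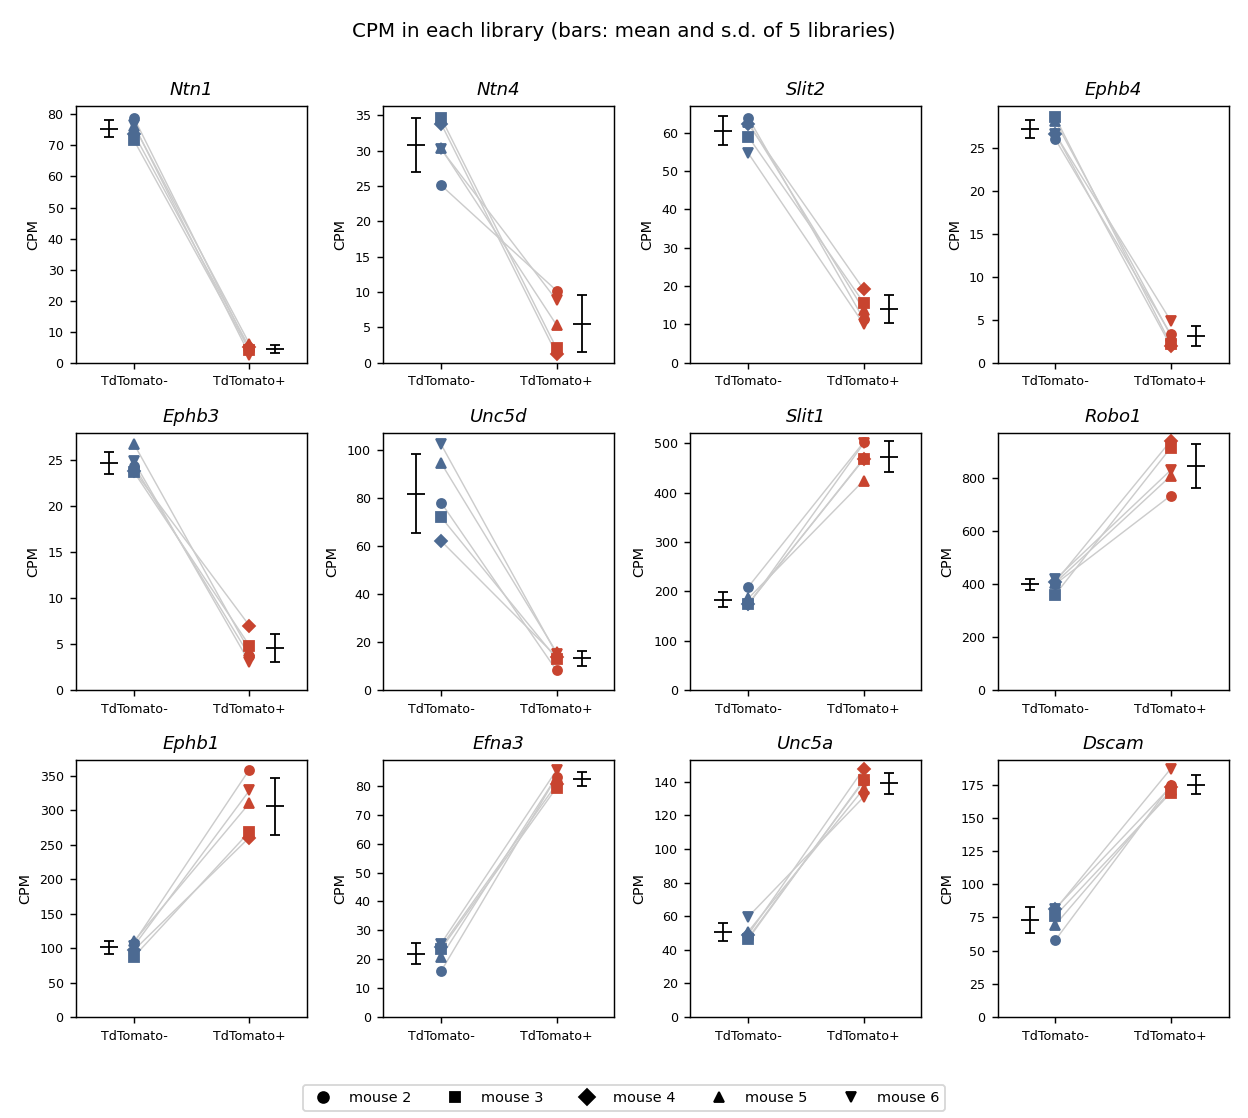
TMM-scaled CPM (y axis, linear) of 12 guidance genes in each library, with the TdTomato- and TdTomato+ libraries of a mouse joined by a line and black bars for mean and s.d. of 5 libraries. The upper 6 panels are the genes past both thresholds, all lower in TdTomato+ cells in every mouse, with Ntn1 falling from 71.6 to 78.9 CPM down to 2.62 to 6.13 CPM, and the lower 6 are Slit1, Robo1, Ephb1, Efna3, Unc5a and Dscam, which were higher in every mouse.

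Of the 4 genes grouped here as attractive netrin receptors, 3 rose and 1, Dscaml1, did not pass the test. Neo1 encodes neogenin, a relative of Dcc that also binds repulsive guidance molecules, and had the highest level per length. It was at 318, 332, 345, 321 and 353 CPM in TdTomato- cells and 518, 638, 636, 549.9 and 463 CPM in TdTomato+ cells. The populations did not overlap, and the log2 fold change was 0.74 (s.e. 0.07, adjusted p = 1.4e-05). Dscam, an adhesion molecule that also binds netrin-1, rose the most of the class, by 1.26 (s.e. 0.07), from 73.3±9.90 to 175±7.10 CPM.

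Dcc, the best-known receptor of the attractive class, rose by 0.61 (s.e. 0.11, adjusted p = 9.6e-04), from 211±13.5 to 332±95.6 CPM. In the TdTomato+ libraries of mice 3 and 4 it stood at 418 and 449.8 CPM, and in the remaining 3 at 241 to 292 CPM. Without those mice the log2 fold change of Dcc was 0.36 (adjusted p = 4.1e-04). Dscaml1, the paralogue of Dscam, stood at 132±25.7 CPM against 120.5±9.07 CPM (log2 fold change −0.12, s.e. 0.11, adjusted p = 0.35), and was lower only without mice 3 and 4 (−0.37, adjusted p = 2.1e-04). The summed level of the 4 genes of this class, Dscaml1 among them, rose from 77.5±2.14 to 122.9±15.5 FPKM.

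The Unc5 receptors, through which netrins repel, included the strongest fall of any receptor but Ephb4, and a clear rise. Unc5a, the highest per length, was at 47.1, 46.3, 49.1, 50.8 and 59.7 CPM in TdTomato- cells and at 140.4, 141, 148, 136 and 131 CPM in TdTomato+ cells. No libraries overlapped, and Unc5a was higher by 1.46 log2 units (s.e. 0.07, adjusted p = 1.3e-07). Unc5d (ENSMUSG00000063626, chromosome 8, 28646717 to 29219636, minus strand), known from multipolar migrating neurons of the upper cortical layers, was at 78.0, 71.9, 62.0, 94.4 and 102 CPM in TdTomato- cells and at 8.07, 13.0, 13.8, 15.7 and 15.0 CPM in TdTomato+ cells. All TdTomato+ libraries were far below the lowest TdTomato- library, that of mouse 4. The log2 fold change was −2.64 (s.e. 0.13, adjusted p = 1.4e-07). Unc5a went from 50.9% to 85.3% of the Unc5 FPKM and Unc5d from 36.9% to 3.63%.

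The other two Unc5 receptors did not pass the test. Unc5c stood at 15.3±7.47 against 14.2±5.51 CPM (log2 fold change −0.10, s.e. 0.21, adjusted p = 0.67), with a sign that turned on leaving out single mice. Unc5b, a receptor best known from vascular endothelium, was at 9.89, 14.0, 15.3, 12.2 and 13.2 CPM in TdTomato- cells and at 6.71, 47.0, 51.8, 12.9 and 5.42 CPM in TdTomato+ cells. The TdTomato+ libraries of mice 3 and 4 were above, and those of mice 2 and 6 below, all TdTomato- libraries. Over all mice the log2 fold change was 0.49 (s.e. 0.43, adjusted p = 0.32). Without mice 3 and 4 it was −0.56 (adjusted p = 0.034), so that the direction of Unc5b rested on these libraries.

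The netrin-G ligands, which are anchored in the membrane by lipid and bind the NGL proteins instead of Dcc, went in opposite directions. Ntng2 was at 72.8, 69.7, 66.6, 65.5 and 88.7 CPM in TdTomato- cells and at 90.8, 178, 206, 108 and 109 CPM in TdTomato+ cells. The TdTomato+ libraries of mice 3 and 4 were again the highest, and the lowest TdTomato+ library, of mouse 2, was just above the highest TdTomato- library. The log2 fold change was 0.87 (s.e. 0.19, adjusted p = 0.0025) over all mice and 0.45 without mice 3 and 4. Of the exonic length of Ntng2, 14.0% overlapped another annotated gene on the same strand, so some of its counts could belong there. Ntng1 fell by 1.22 (s.e. 0.25, adjusted p = 0.0018) from 9.91±5.34 to 4.04±1.82 CPM, lower in 5 of 5 mice although the ranges overlapped.

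Among the lipid-anchored ephrin-A ligands, which bind mainly EphA receptors, 2 rose, 1 fell and 2 did not pass the test. Efna2 had the highest level per length in TdTomato- cells and was at 60.7, 58.6, 64.1, 66.2 and 64.5 CPM in TdTomato- cells and at 56.9, 57.5, 63.0, 60.6 and 65.3 CPM in TdTomato+ cells. The ranges overlapped almost wholly (log2 fold change −0.05, s.e. 0.04, adjusted p = 0.31). Efna3 was at 15.9, 23.5, 24.2, 20.8 and 25.4 CPM in TdTomato- cells and at 83.1, 79.4, 80.6, 83.2 and 85.4 CPM in TdTomato+ cells. This was the largest increase of any guidance gene, 1.92 (s.e. 0.10, adjusted p = 1.4e-07), and without mice 3 and 4 it was 2.04, past the fold change threshold. Efna5 fell by 1.38 (s.e. 0.11) from 27.5±3.55 to 10.6±1.74 CPM. Efna3 thus went from 16.1% to 43.3% of the ephrin-A FPKM and Efna2 from 52.9% to 36.4%.

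Efna1, Efna3 and Efna4 are neighbours on chromosome 3, with 32.8 kb between Efna1 and Efna3 and 10.4 kb between Efna3 and Efna4, but differed in their changes. Efna4 stood at 15.4±1.28 against 16.9±1.25 CPM (log2 fold change 0.13, s.e. 0.08, adjusted p = 0.17). Of the exons of Efna3 and Efna4, 14.1% and 10.5% overlapped genes on the opposite strand. Efna1 was at 1.09, 1.83, 1.44, 1.51 and 1.46 CPM in TdTomato- cells and at 0.952, 9.67, 11.7, 1.87 and 1.40 CPM in TdTomato+ cells. Only the TdTomato+ libraries of mice 3 and 4 stood clearly above the rest, and Efna1 was higher in 3 of 5 mice. The call over all mice, at 1.34 log2 units (s.e. 0.49, adjusted p = 0.03), rested on them, since it was 0.94 (adjusted p = 0.15) without mouse 3, 0.81 (adjusted p = 0.12) without mouse 4 and 0.04 (adjusted p = 0.91) without both.

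Of the transmembrane ephrin-B ligands, which bind EphB receptors and Epha4, Efnb1 fell, Efnb2 rose slightly and Efnb3 did not pass the test. Efnb1, an X-linked gene and the highest of the class per length in TdTomato- cells, was at 258, 341, 302, 319 and 329 CPM in TdTomato- cells and at 94.4, 134, 132, 114 and 114 CPM in TdTomato+ cells. The populations did not overlap (log2 fold change −1.40, s.e. 0.05, adjusted p = 2.9e-08). Efnb2 went from 389.7±36.6 to 456±70.1 CPM, 0.22 log2 units higher in the paired fit (s.e. 0.06, adjusted p = 0.0061). Without the replicate block it was 0.23 with an adjusted p of 0.058, and without mice 3 and 4 it was 0.14 with an adjusted p of 0.075. Efnb3 was at 160.3±15.2 and 170.3±14.8 CPM (adjusted p = 0.15). The largest share of the ephrin-B FPKM passed from Efnb1, at 45.5% in TdTomato- cells, to Efnb2, at 43.0% in TdTomato+ cells.

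The EphB receptors held the widest contrast within a receptor class. Ephb1 rose more than any other receptor here, while Ephb3 and Ephb4 fell past both thresholds, and the promoters of these 3 genes are shown for that reason, with that of Slit2. Sequences are the RefSeq sequence of GRCm38.p6 over 200 bases that end 50 bases before the RefSeq start of the gene, which for Ephb3 and Slit2 is not the GENCODE start given here, written 5′ to 3′ in the direction of transcription. Capitals mark the E-box CANNTG, which reads alike on both strands and is the core element bound by basic helix-loop-helix factors. These are Ephb1 at chr9:102354744-102354943 (minus strand), Ephb3 at chr16:21204545-21204744 (plus strand), Ephb4 at chr5:137349859-137350058 (plus strand) and Slit2 at chr5:47982905-47983104 (plus strand).
Ephb1: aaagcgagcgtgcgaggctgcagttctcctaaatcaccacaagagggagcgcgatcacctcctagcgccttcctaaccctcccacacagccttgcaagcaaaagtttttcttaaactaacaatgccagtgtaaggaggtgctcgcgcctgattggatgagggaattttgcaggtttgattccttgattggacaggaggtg
Ephb3: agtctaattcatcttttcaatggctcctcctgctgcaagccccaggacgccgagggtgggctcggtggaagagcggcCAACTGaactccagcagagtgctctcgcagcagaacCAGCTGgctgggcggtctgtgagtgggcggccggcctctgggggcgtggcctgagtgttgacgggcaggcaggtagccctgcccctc
Ephb4: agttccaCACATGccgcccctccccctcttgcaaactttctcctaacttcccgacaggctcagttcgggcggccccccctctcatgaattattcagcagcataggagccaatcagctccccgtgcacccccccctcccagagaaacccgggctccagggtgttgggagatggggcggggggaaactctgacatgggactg
Slit2: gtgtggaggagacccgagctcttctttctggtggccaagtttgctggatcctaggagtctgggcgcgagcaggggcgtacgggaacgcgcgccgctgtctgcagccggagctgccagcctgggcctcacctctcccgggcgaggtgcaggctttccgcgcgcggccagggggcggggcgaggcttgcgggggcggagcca
Ephb3 held 2 such elements in this window and Ephb4 held 1, and none was found for Ephb1 and Slit2. For 36 of the 42 genes the RefSeq table held at least 1 promoter, 41 windows in all, of which 14 (34.1%) held CANNTG, against 59% of all 32851 windows. Their median GC content was 64.5%, against 51.5% over all windows.

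Ephb1 was at 108, 87.5, 97.0, 110.0 and 103 CPM in TdTomato- cells and at 359, 269, 260.4, 310.2 and 329 CPM in TdTomato+ cells. The lowest TdTomato+ level, in mouse 4, was more than the highest TdTomato- level, and the log2 fold change was 1.59 (s.e. 0.05, adjusted p = 1.1e-08). Ephb4 (ENSMUSG00000029710, chromosome 5, 137350109 to 137378669, plus strand), best known as the receptor for ephrin-B2 on veins, was at 26.0, 28.5, 26.7, 28.1 and 26.6 CPM in TdTomato- cells and at 3.31, 2.17, 1.94, 3.17 and 4.88 CPM in TdTomato+ cells. The TdTomato- libraries were almost level and all TdTomato+ libraries were far lower. The log2 fold change was −3.16 (s.e. 0.18, adjusted p = 3.2e-07).

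Ephb3 (ENSMUSG00000005958, chromosome 16, 21204755 to 21223305, plus strand), a receptor known from commissural axons, was at 24.3, 23.7, 23.8, 26.7 and 24.8 CPM in TdTomato- cells and at 3.72, 4.81, 6.98, 4.22 and 2.98 CPM in TdTomato+ cells. The populations were again far apart (log2 fold change −2.47, s.e. 0.16, adjusted p = 9.1e-07). Ephb2 fell by little, from 348.4±24.4 to 292±7.44 CPM (log2 fold change −0.25, s.e. 0.05, adjusted p = 8.9e-04). Ephb6, a member with no kinase activity, rose by 0.34 (s.e. 0.05). Ephb1 rose from 22.6% to 52.1% of the EphB FPKM, and Ephb2, the leading member in TdTomato- cells at 43.3%, stood at 27.9% in TdTomato+ cells.

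For Ephb4, Unc5b and Efna1, which are known from vessels, endothelial markers were set beside the result. Of 8 such markers, 3 were measured, Kdr, Esam and Pecam1, and Cdh5, Cldn5, Flt1, Tek and Tie1 were not analysed here. Their sum was 2.61 to 4.44 CPM in the TdTomato- libraries and 1.72 to 3.13 CPM in the TdTomato+ libraries, where it was 3.13, 3.08, 2.43, 1.96 and 1.72 CPM in mice 2 to 6. Kdr was lower in TdTomato+ cells, and the other two did not pass the test. The part of endothelial cells in the levels of Ephb4, Unc5b and Efna1 was not tested.

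In the EphA receptors 3 rose, 2 fell and 2 did not pass the test. Epha4, which binds both ephrin classes, was the highest per length over all libraries, at 505, 446, 396, 520.2 and 464 CPM in TdTomato- cells and 184, 181, 161, 205 and 213 CPM in TdTomato+ cells. The populations did not overlap (log2 fold change −1.30, s.e. 0.05, adjusted p = 2.8e-08). Epha3 fell by 1.08 (s.e. 0.07) from 188±27.6 to 90.7±23.6 CPM. Epha7 rose by 0.92 (s.e. 0.05) from 47.7±2.25 to 90.6±10.5 CPM, and Epha5 by 0.44 (s.e. 0.05) from 246±36.1 to 333±33.4 CPM. The share of Epha4 in the class FPKM went from 57.2% to 36.2%, while Epha5 went from 14.6% to 30.6% and Epha7 from 4.77% to 14.1%. Which of them led in TdTomato+ cells depended on the length used, since with the longest annotated transcript Epha5 was at 45.5 FPKM there and Epha4 at 29.9 FPKM.

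The remaining EphA receptors were near the lower end of the measured range. Epha6 rose by 0.47 (s.e. 0.18, adjusted p = 0.035) from 2.16±0.331 to 3.06±0.920 CPM, higher in 5 of 5 mice. This call was lost with DESeq2 (adjusted p = 0.10), without mouse 2 (adjusted p = 0.058) and without mouse 5 (log2 fold change 0.29, adjusted p = 0.13). Epha8, which lies 93.4 kb from Ephb2 on chromosome 4, was at 7.20±1.98 and 6.07±1.5 CPM (adjusted p = 0.12). Epha10, which has no active kinase, was at 0.849±0.162 and 1.14±0.448 CPM (adjusted p = 0.13).

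**Figure D3:**
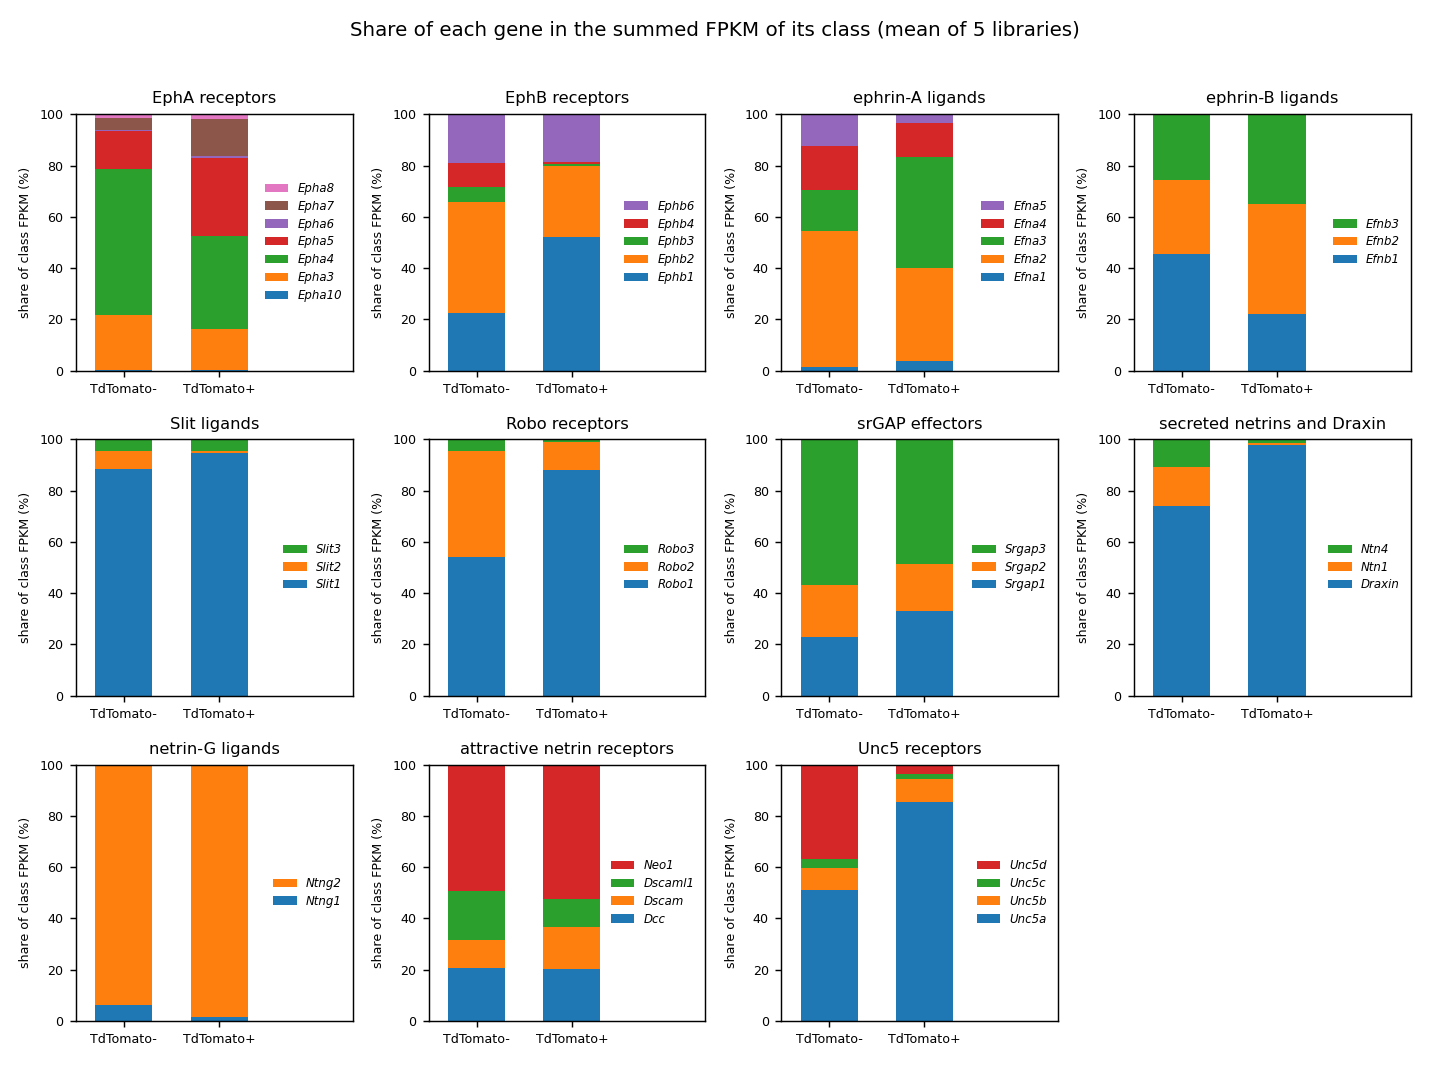
Share of each gene (y axis, percent, mean of 5 libraries) in the summed FPKM of its class for TdTomato- and TdTomato+ cells, with 1 panel per class. With the exon union as length, the leading gene differed between the populations among the EphB receptors (Ephb2, then Ephb1), the ephrin-A ligands (Efna2, then Efna3) and the ephrin-B ligands (Efnb1, then Efnb2), and Robo1 and Unc5a came to make up 88.2% and 85.3% of their classes.

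Summed per length, most classes were more abundant in TdTomato+ cells even where single members fell. Of the 11 classes, 2 had a lower summed FPKM in TdTomato+ cells in all 5 mice, the EphA receptors with 101±4.52 against 65.0±4.75 FPKM and the ephrin-B ligands with 197±13.9 against 154±16.1 FPKM. The remaining 9 were higher in all 5 mice. The EphB receptors went from 63.9±3.14 to 83.5±7.85 FPKM, the ephrin-A ligands from 55.8±2.90 to 78.3±2.68 FPKM and the Robo receptors from 44.7±1.64 to 58.0±4.52 FPKM. The secreted netrins and Draxin went from 78.4±7.80 to 115±16.7 FPKM, the netrin-G ligands from 19.4±1.96 to 35.2±12.5 FPKM and the Unc5 receptors from 23.9±2.68 to 39.5±5.06 FPKM. These sums follow their most abundant members, so that in 2 classes with a strongly negative median log2 fold change, the Robo receptors (−1.60) and the secreted netrins with Draxin (−2.61), the sum still rose.

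Other proteins of these pathways also differed in both directions. Of 20 listed extracellular partners, 18 were measured, of which 8 were higher, 7 lower and 3 did not pass the test, with a median log2 fold change of 0.07, where 37.9% of all rows were higher and 39.4% lower. Prtg, a Dcc-related receptor, was the only 1 of them past both thresholds, with 20 to 33 counts in the TdTomato- libraries and 0 to 7 counts in the TdTomato+ libraries, at or under the floor of 3 counts in 4 of these 5. Some partners are singled out here after their values were seen, because they bind members described above. The NGL proteins Lrrc4c, which binds Ntng1, and Lrrc4, which binds Ntng2, rose by 1.86 (s.e. 0.06) and 1.13 (s.e. 0.05), so that Lrrc4c and its ligand Ntng1 changed in opposite directions. Flrt2, a ligand of Unc5d, rose by 1.25 (s.e. 0.05), whereas Flrt3, which binds Robo1 and Unc5b, fell by 1.84 (s.e. 0.09).

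All 31 listed cytoplasmic effectors were measured. Of these 17 were higher, 6 lower and 8 did not pass the test, where 37.9% of all rows were higher and 39.4% lower. Their median log2 fold change was 0.16. Past both thresholds were Trim67, a ubiquitin ligase that binds Dcc, which rose from 231±27.5 to 995±145 CPM (log2 fold change 2.10, s.e. 0.05), and Ablim1, an actin-binding protein, which rose from 40.1±4.94 to 191±44.7 CPM (2.23, s.e. 0.08). Dock1, an activator of Rac downstream of Dcc, fell from 44.3±4.72 to 2.31±0.782 CPM (−4.28, s.e. 0.12). By both thresholds 3.2% of all rows were higher and 9.74% lower.

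Several guidance genes varied more among the TdTomato+ libraries than the table did on the whole. Their median coefficient of variation was 15.5% over the TdTomato+ libraries and 10.6% over the TdTomato- libraries, where the medians of all rows were 9.93% and 9.72%. The TdTomato+ libraries of mice 3 and 4 were the highest pair for 15 of the 42 genes, against 19.6% of all rows, and the lowest pair for 11, against 19.7% of all rows. The 6 deep-layer markers split in the same libraries. Foxp2 was lowest in mice 3 and 4, at 30.3 and 24.5 CPM against 59.6 to 66.7 CPM in the other TdTomato+ libraries, and so were Tle4, at 268 and 204 CPM against 348.2 to 455 CPM, and Fezf2, at 516 and 514 CPM against 579 to 682 CPM. Highest in mice 3 and 4 were Tbr1, at 2087 and 2026 CPM against 1442 to 1558 CPM, Sox5, at 1307 and 1193 CPM against 968 to 1158 CPM, and Bcl11b, at 1606 and 1539 CPM against 1254 to 1412 CPM. The TdTomato- libraries of mice 3 and 4 also stood apart from those of the other mice. Their summed microglial markers were at 13.1 and 17.6 CPM against 45.2 to 61.2 CPM, their summed Cajal-Retzius markers at 344 and 389.5 CPM against 213 to 276 CPM, and their summed deep-layer markers at 1676 and 1593 CPM against 1238 to 1452 CPM. The fold changes of these mice rest on both of their libraries, and the part of these differences in the results was not tested. With both mice left out, a choice made after the data were seen, 18 guidance genes were higher and 16 lower, where 34.8% and 36.3% of all rows were. Past both thresholds 1 was higher and 5 lower, where 3.44% and 9.88% of all rows were.

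**Figure D4:**
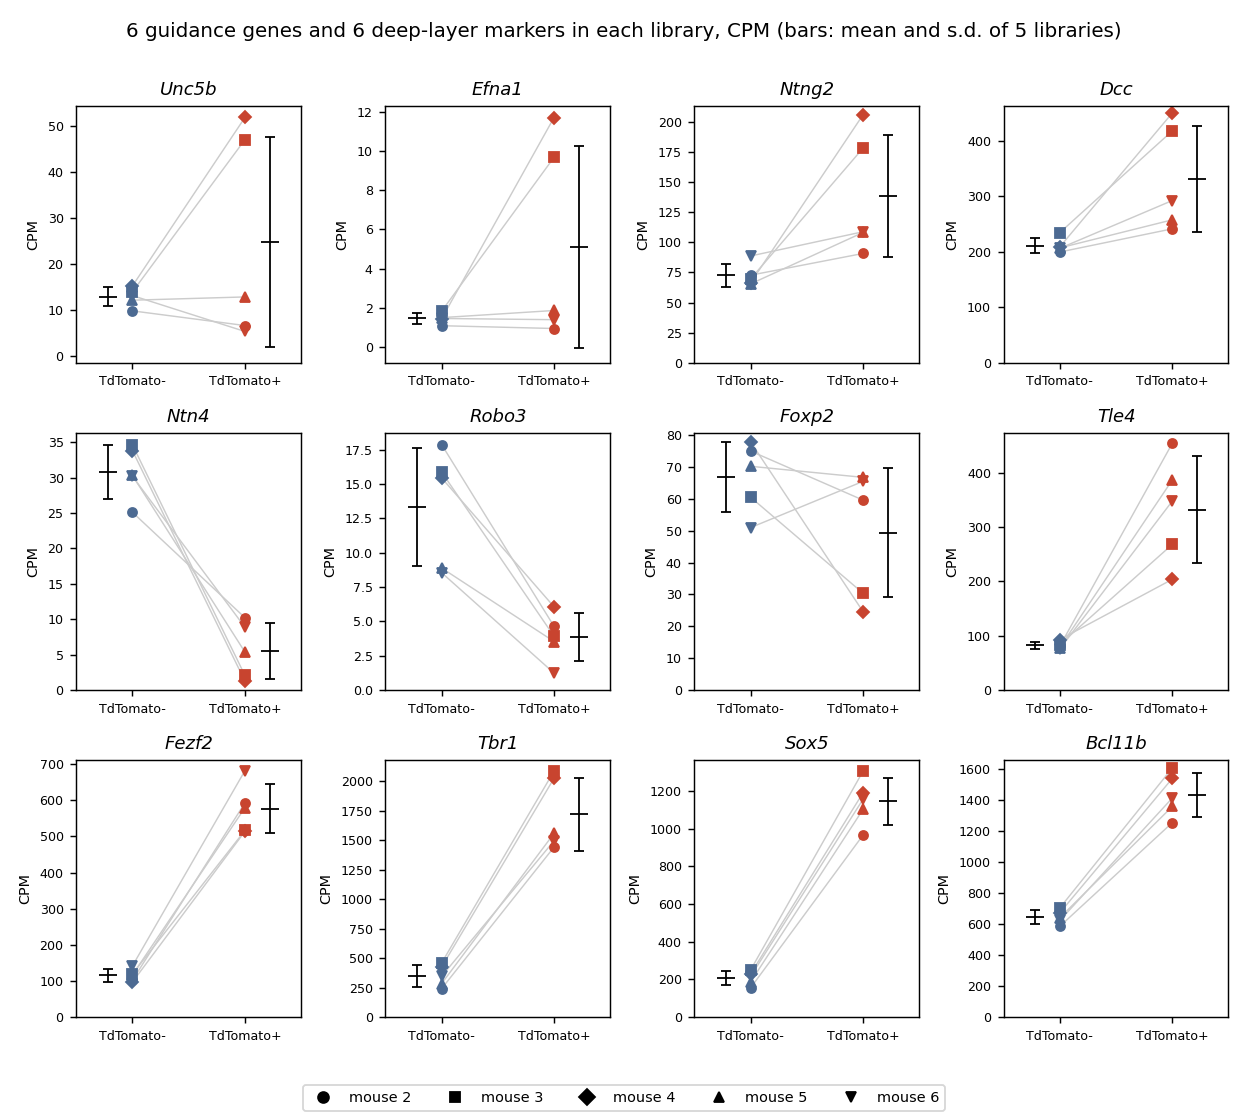
TMM-scaled CPM (y axis, linear) of 6 guidance genes and of the 6 deep-layer markers in each library, symbols as mice 2 to 6, with black bars for mean and s.d. of 5 libraries. In TdTomato+ cells mice 3 and 4 are highest for Unc5b, Efna1, Ntng2 and Dcc and lowest for Ntn4, while of the markers Foxp2, Tle4 and Fezf2 are lowest and Tbr1, Sox5 and Bcl11b highest in these mice, and Robo3 does not separate them.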

How the data were processed

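RNA from TdTomato+ and TdTomato- cells of 5 mouse numbers was sequenced as strand-specific poly(A) libraries; the labels and the methods of the study name different kits and sequencers. Per the methods and the submitters' processing notes, the authors removed adaptors and low-quality bases, aligned reads to GRCm38 with STAR 2.4.2a, kept unique alignments with at most 1 mismatch and deposited raw read counts per gene. The annotation release and the strand column counted are not given in the sources used here, so counts of overlapping genes are uncertain. Outliers were removed by the authors after inspection of a scaling plot. Every row of the deposited table had more than 0.5 CPM in at least 5 libraries.

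From these counts, TMM-scaled CPM and the paired test were computed with edgeR 4.0.16 in R 4.3.3 (filterByExpr, glmQLFit and glmQLFTest with a block for the mouse and a prior count of 0.125), adjusted over 14300 rows. A call needed an adjusted p of 0.05 or less, and a differentially expressed gene also a log2 fold change of 2 or more in either direction. Standard errors are the absolute log2 fold change over the square root of F. Symbols and exon unions came from GENCODE (14271 rows matched, 29 did not). Class sums are descriptions without a test. The numbers in the sample titles pair the samples. Deviations from the group means correlated at 0.186 to 0.316 for libraries of the same number, and at −0.312 to 0.212 for different numbers. These ranges overlap, so the correlations alone do not settle the pairing. No replicates agreed within sampling noise (chi-square per degree of freedom 4.53 to 32.8). Nothing says that the numbers are separate litters, so p-values measure the spread between these samples. Libraries held 23429034 to 27286180 counts, TMM factors were 1.06 to 1.07 (TdTomato-) and 0.93 to 0.95 (TdTomato+), and counting error was not small beside the spread between mice for the lowest genes such as Epha10. The procedure was also run on simulated counts with few changed genes and no differences between mice. That setting is unlike these data, and no conclusion is drawn from it.

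The guidance genes, classes and gene lists were chosen with earlier results of these data known. Each library's value is given for genes past both thresholds and for the gene with the highest mean FPKM of each class; genes whose call an alternative changed are named, and of partner and effector genes, those past both thresholds are named. The alternatives comprised DESeq2 1.42.0, normalization by RLE or by upper quartiles, other count filters, no block, TREAT, a prior count of 2, robust estimation, each mouse left out, the longest transcript as length, and, added after the data were seen, mice 3 and 4 both left out.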

Additional observations from a re-analysis of the deposited data

Results flagged for a closer look

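Within each population every guidance gene was examined for a library that stood apart from the other 4 by Dixon's criterion for 5 samples. The criterion was a gap over range above 0.71 on log2 CPM, whereas the levels below are given as CPM. Of 84 groups of libraries, 6 held such a library, where chance gives about 4.2. Robo2 was low in the TdTomato- library of mouse 2 (274 CPM, gap over range 0.79). Unc5c was high in the TdTomato- library of mouse 4 (28.5 CPM, gap over range 0.732). Dcc was high in the TdTomato- library of mouse 3 (234 CPM, gap over range 0.717). In TdTomato+ cells Unc5d was low in mouse 2 (8.07 CPM, gap over range 0.716), Dscaml1 was low in mouse 6 (105 CPM, gap over range 0.742) and Srgap2 was low in mouse 4 (282 CPM, gap over range 0.829). The 6 libraries came from 4 mice and both populations.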

How the results depend on the processing

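Leaving out both mouse 3 and mouse 4 is given separately. Otherwise the numbers of guidance genes called higher and lower stayed within 1.5 times the reported ones under each alternative that recomputed them (all but TREAT, the prior count and the transcript length). Class medians, recomputed under other normalizations, DESeq2, no block and single mice left out, moved by less than their spread between mice. None of the 20 higher and 14 lower genes turned under these alternatives. Leaving out each mouse in turn gave 19 to 20 genes higher, 14 lower and 6 lower past both thresholds, while of all rows 35.7% to 37.0% were higher, 37.1% to 38.4% lower and 9.55% to 9.81% lower past both thresholds. Calls of single genes were lost for Epha6 (DESeq2 with the replicate block, without mouse 2 and without mouse 5), Efnb2 (no replicate block) and Efna1 (robust estimation, without mouse 3 and without mouse 4), and the block changed no other call of a guidance gene. TREAT kept 4 of the 6 genes past both thresholds, where it called 7.53% of all rows lower. Other normalizations moved the median of all rows to −0.03 at the most. Each of them places the bulk of the genes near no change, so this cannot show that the scaling is right. With mice 3 and 4 both left out, an alternative chosen after seeing the data, 1 gene was higher past both thresholds (Efna3), Ntn4 was not past the fold change threshold, Efna1 and Efnb2 lost their calls, Dscaml1 became called, and Unc5b turned to −0.56 with an adjusted p of 0.034; the cause was not tested. Over all settings 576 of 587 values of single genes kept their side of the threshold without a called gene changing direction; Unc5c, not called, changed sign in some. In the Unc5 class, whose median moved between −0.07 and 0.45 on leaving out single mice, the sign of the median turned with the mouse left out. With the longest transcript in place of the exon union, Ntng2 was at 37.1 and 70.8 FPKM and Epha5 led the EphA receptors in TdTomato+ cells. Counts were lowest, and counting error largest, for genes such as Epha10, Efna1 and Epha6.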
